A study of Mus musculus with 8 samples.

Results

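The inflammasome, pyroptosis and necroptosis genes described here are 10 genes taken by symbol from the deposited gene count tables of the injured and sham-operated mouse heart: Nlrp3, Pycard, Casp1, Casp4, Gsdmd, Aim2, Nlrc4, Ripk1, Ripk3 and Mlkl. All 10 were found among the 24062 genes listed at both days, and all 10 were among the 15508 genes with enough counts to be tested. RNA came from the left ventricular free wall of male C57BL/6 mice aged 8 to 12 weeks. Mice had either a myocardial infarction (MI), made by tying off the left anterior descending coronary artery, or a sham operation in which it was not tied. The groups were MI at 1 day, sham at 1 day, MI at 3 days and sham at 3 days, with 2 mice and 2 libraries each; no mouse carried a transgene or received a drug, as far as the labels say. The tissue was frozen and crushed, so each library holds the RNA of every cell type in the wall.

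Inflammasomes are protein platforms that form in the cytosol when a sensor meets a danger signal. The sensor recruits an adaptor and an inflammatory caspase, which matures interleukin-1 family cytokines and cuts a gasdermin into a fragment that forms pores and ends in a lytic death called pyroptosis. Necroptosis is another lytic death, run by receptor-interacting kinases and the pore-associated pseudokinase MLKL, when caspase-8 is not active. In the infarcted heart both have been described in infiltrating leukocytes and dying muscle cells, among other cells. Messenger levels do not show whether a protein was cleaved or phosphorylated.

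Libraries are called A and B within a group, by the order of their columns. They held 7382490 to 25041386 counts, with the 2 MI libraries of 1 day at 12662237 and 7382490. MI library B of 1 day stood apart: it had at least 1 read in 92.2% of 1468 chemosensory receptor genes, against 4.09% to 50.7% in the other 7 libraries, and its mitochondrial share of the transcript-table reads was 43.3%, against 4.19% to 28.7% in the others. Sham library A of 3 days had more leukocyte RNA than sham library B of 3 days, with summed levels of 8 leukocyte markers of 399 and 213 CPM (counts per 1000000 counts, scaled by TMM effective library sizes). The labelled tissue was checked with 8 cardiomyocyte markers, which were present in every library. Their summed level was 48754 and 35952 CPM in MI libraries of 1 day, against 108610 and 102000 CPM in sham libraries of 1 day, and 3995 and 4351 CPM in MI libraries of 3 days, against 75141 and 81231 CPM in sham libraries of 3 days. The globin genes Hba-a1, Hbb-bs and Hbb-bt were listed at 0 in every library.

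At 1 day after MI, 7 of the 10 genes rose and 0 fell, also in DESeq2 and at an unadjusted p under 0.05 in edgeR, against 19.3% of all tested genes called higher and 19.7% called lower. These were Nlrp3, Aim2, Casp4, Gsdmd, Ripk1, Ripk3 and Mlkl. At 3 days all 10 rose, and 9 in DESeq2, against 31.7% of tested genes called higher and 23.7% called lower in edgeR. A gene was called when its adjusted p was under 0.05 in edgeR's quasi-likelihood F test with Benjamini-Hochberg adjustment over all 15508 tested genes. The median log2 fold change of the 10 genes, MI over sham, was 1.50 at 1 day and 2.51 at 3 days, where the median of all tested genes was 0.12 and 0.16. Both MI libraries lay above both sham libraries for 8 of the 10 genes at 1 day and for 10 at 3 days, which was so for 34.7% and 45.9% of all tested genes. The 2 genes whose MI and sham values overlapped at 1 day were Pycard and Casp1.

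**Figure D1:**
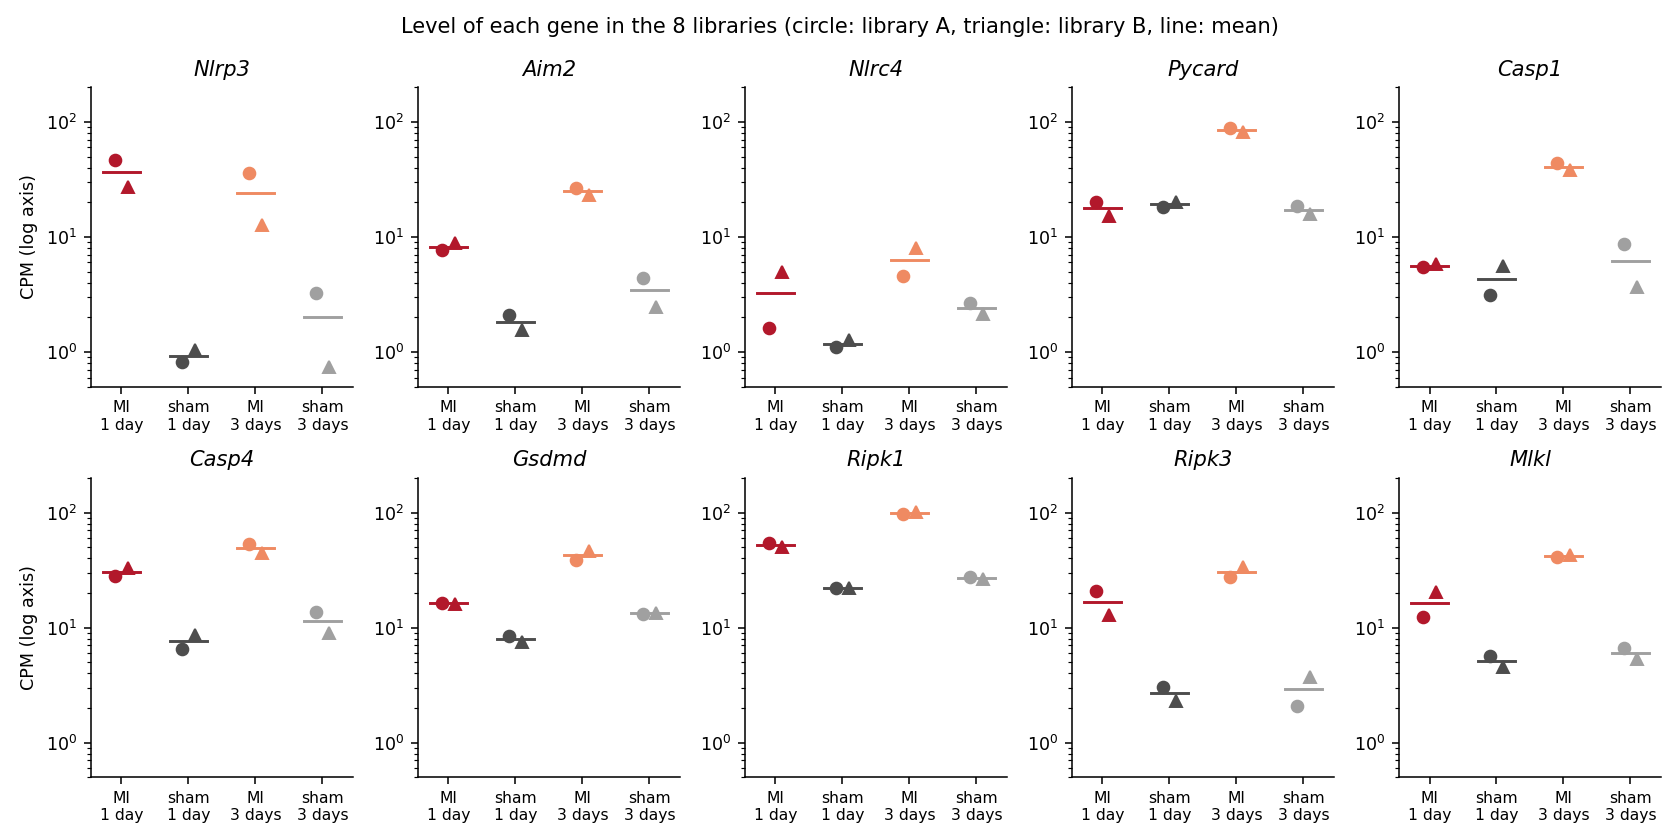
Level of each of the 10 genes in CPM (log axis), for MI and sham libraries at 1 day and then at 3 days; circles are library A, triangles library B and lines the mean of the 2. Pycard and Casp1 overlap between MI and sham at 1 day and are separate at 3 days, while Nlrp3 is far above sham at both days.

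Reads came from whole tissue, so fewer cells of a type and less RNA per cell cannot be told apart, and the same holds for more cells and more RNA per cell. The summed level of the 8 leukocyte markers was 1309 and 991 CPM in MI libraries of 1 day, against 226 and 267 CPM in sham libraries of 1 day. In MI libraries of 3 days it was 2508 and 2368 CPM, against 399 and 213 CPM in sham libraries. Called higher were 7 of these 8 markers at 1 day and 8 of 8 at 3 days. Of the neutrophil markers 12 of 13 were higher at 1 day and 9 of 13 at 3 days, with summed levels of 2501.5 and 1286 CPM in MI libraries of 1 day, against 225 and 156 CPM in sham, and of 1029 and 578 CPM in MI libraries of 3 days, against 225 and 118 CPM in sham. Of the 12 monocyte and macrophage markers, Ccr2, Ly6c2 and Fcgr1 were higher and C1qa, C1qb, C1qc and Adgre1 lower at 1 day, and all 12 were higher at 3 days. Their sum was 762 and 968 CPM in MI libraries of 1 day, against 1115 and 1430 CPM in sham, and 7617 and 8464.5 CPM in MI libraries of 3 days, against 1995 and 1022 CPM in sham. The part of these cell types in the changes of the 10 genes was not tested.

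The start-site sequences below are shown because Nlrp3 and Casp4 had risen by 1 day, whereas Casp1 and Pycard were called higher at 3 days and not at 1 day. Each is the 250 bases before an annotated start in RefSeq for GRCm38.p6, read 5′ to 3′ in the direction of the gene, and Nlrp3, Casp4 and Ripk1 have 2 annotated starts each. For Casp4 the upstream one is shown, since the windows nearly coincide. The Nlrp3 windows are chr11:59541319-59541568 and chr11:59542436-59542685 on the plus strand, the Casp4 window is chr9:5308599-5308848 on the plus strand, the Casp1 window is chr9:5298267-5298516 on the plus strand and the Pycard window is chr7:127993868-127994117 on the minus strand. Capitals mark matches to the NF-kB consensus in the upstream Nlrp3 window and in Casp4, and matches to GAGGAA, the core bound by PU.1, on either strand in the other 3 windows.
Nlrp3 upstream start: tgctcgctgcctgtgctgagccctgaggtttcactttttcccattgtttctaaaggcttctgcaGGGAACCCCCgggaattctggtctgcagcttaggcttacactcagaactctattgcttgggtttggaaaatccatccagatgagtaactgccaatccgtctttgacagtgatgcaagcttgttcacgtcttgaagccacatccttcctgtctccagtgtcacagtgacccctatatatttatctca
Nlrp3 downstream start: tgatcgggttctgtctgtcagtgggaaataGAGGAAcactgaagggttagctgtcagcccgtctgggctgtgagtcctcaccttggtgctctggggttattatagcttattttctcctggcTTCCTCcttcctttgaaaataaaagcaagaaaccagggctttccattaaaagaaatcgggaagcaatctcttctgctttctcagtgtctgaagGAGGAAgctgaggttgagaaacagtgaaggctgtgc
Casp4: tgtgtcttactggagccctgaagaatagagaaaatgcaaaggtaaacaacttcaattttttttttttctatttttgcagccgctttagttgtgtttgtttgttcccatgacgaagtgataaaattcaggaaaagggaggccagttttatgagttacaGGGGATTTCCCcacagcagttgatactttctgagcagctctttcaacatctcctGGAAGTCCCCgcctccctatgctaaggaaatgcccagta
Casp1: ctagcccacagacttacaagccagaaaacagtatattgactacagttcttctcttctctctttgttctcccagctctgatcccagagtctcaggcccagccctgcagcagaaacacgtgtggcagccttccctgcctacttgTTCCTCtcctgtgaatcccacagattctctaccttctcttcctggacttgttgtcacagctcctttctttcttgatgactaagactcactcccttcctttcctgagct
Pycard: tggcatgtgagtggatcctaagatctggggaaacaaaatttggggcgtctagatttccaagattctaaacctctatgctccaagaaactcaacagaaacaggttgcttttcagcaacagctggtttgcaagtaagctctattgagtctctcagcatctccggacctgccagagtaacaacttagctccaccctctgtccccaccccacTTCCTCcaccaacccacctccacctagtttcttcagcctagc
The NF-kB consensus began 186 bases before the upstream start of Nlrp3, and 93, 92 and 39 bases before the upstream start of Casp4 (104, 103 and 50 bases before the other one), where the first 2 matches overlap. GAGGAA lay 220, 129 and 36 bases before the downstream start of Nlrp3, 108 bases before that of Casp1 and 42 bases before that of Pycard. Of all 32851 windows of 250 bases in the table, 7.25% held the NF-kB consensus and 23.3% held GAGGAA on either strand. Of the 10 genes, 9 had a window in the table, 12 windows in all. The NF-kB consensus was found in windows of Casp4 and Nlrp3. It was in no window of the other genes, among them Aim2, Ripk1, Ripk3 and Mlkl, also called higher at 1 day. Gsdmd had no window. GAGGAA was found in windows of Aim2, Casp1, Nlrp3, Pycard and Ripk1. TTCNNNGAA, the gamma-activated site, was in 1 window of Ripk1, where 7.02% of all windows held it. The interferon-stimulated response element, searched as GAAA, any pair of bases and GAAA, and TGANTCA, the AP-1 site, were in none of the 12, where 2.98% and 6.75% of all windows held them. A match is a run of letters and not a shown site of binding. The windows shown were picked by the time of the rise, and whether a match goes with that time was not tested.

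Nlrp3 (chr11:59541569-59566955, GRCm38.p6) encodes the sensor that assembles after potassium efflux and other signs of cell damage, and needs a priming signal to be made in macrophages. It had 47.1 and 26.9 CPM in MI libraries A and B of 1 day, against 0.811 and 1.04 CPM in sham libraries of 1 day. In MI libraries of 3 days it had 36.0 and 12.7 CPM, against 3.26 and 0.744 CPM in sham libraries. The groups did not overlap at either day, and the 2 libraries of a group differed 2.82 times in MI and 4.39 times in sham at 3 days. The gene was 40.3-fold higher after MI at 1 day (log2 fold change 5.33 ± 0.75 SE, edgeR adjusted p = 0.000785). The rise at 3 days was 12.1-fold (log2 fold change 3.59 ± 0.65 SE, edgeR adjusted p = 0.0011). That value at 3 days rests on single libraries for its size: the log2 fold change was 2.46 without MI library A of 3 days, 5.01 without sham library A of that day and 2.90 without its sham library B, and stayed past the threshold each time (edgeR adjusted p = 0.0114, 0.00601 and 0.0222).

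The transcript tables list 3 Nlrp3 transcripts, of which the 2 long ones differ in their start. The 3933-base form, from the upstream start whose window holds the NF-kB match, had 150 and 61 reads in MI libraries of 1 day, and the 4021-base form, from the downstream start, had 76 and 26. At 3 days after MI the 3933-base form had 156 and 67 reads and the 4021-base form 218 and 81. The upstream form thus had more reads in both MI libraries of 1 day, and the downstream form had more in both MI libraries of 3 days. In sham libraries of 1 day the upstream form was also ahead, at 3 and 5 reads against 1 and 3. In sham libraries of 3 days it had 19 and 3 reads, against 10 and 5 for the downstream form. The forms share most of their sequence, so the split between them depends on how shared reads were divided, and it was not tested.

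Aim2 (chr1:173349547-173466040) encodes the sensor of double-stranded DNA in the cytosol. It had 7.63 and 8.86 CPM in MI libraries of 1 day, against 2.09 and 1.55 CPM in sham, and 26.8 and 23.1 CPM in MI libraries of 3 days, against 4.44 and 2.44 CPM in sham. Every MI value was above every sham value, and the MI libraries of 3 days were above those of 1 day. Aim2 was 4.48-fold higher at 1 day (log2 fold change 2.16 ± 0.39 SE, edgeR adjusted p = 0.00243) and 7.23-fold higher at 3 days (2.85 ± 0.30, edgeR adjusted p = 3.45e-05). In RefSeq its locus overlaps Cadm3, and no source used here gives the strand setting of the counting. Cadm3 had 1.56 and 1.77 CPM in MI libraries of 3 days, against 3.53 and 1.22 CPM in sham (log2 fold change -0.50, edgeR adjusted p = 0.447).

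Nlrc4 (chr17:74426255-74459144) encodes the sensor that joins NAIP proteins bound to bacterial flagellin or secretion needles. It had the fewest counts of the 10 genes in each MI library, 20 and 40 at 1 day and 112 and 235 at 3 days. That was 1.62 and 4.92 CPM in MI libraries of 1 day, against 1.10 and 1.27 CPM in sham, and 4.59 and 8.00 CPM in MI libraries of 3 days, against 2.67 and 2.13 CPM in sham. MI values were above sham values at both days, but MI library A of 1 day was close to sham. The log2 fold change was 1.34 ± 0.67 SE at 1 day (edgeR adjusted p = 0.138) and 1.40 ± 0.45 SE at 3 days (edgeR adjusted p = 0.024). The call at 3 days was the weakest of the 10. It was lost in DESeq2 (1.26, adjusted p = 0.123) and in edgeR without MI library B (0.71, adjusted p = 0.34), sham library A (1.59, adjusted p = 0.0611) or sham library B (1.26, adjusted p = 0.116) of 3 days. At 1 day a call was gained without MI library A (1.96, adjusted p = 0.024), and the value was 0.45 without MI library B. Its RefSeq locus overlaps Gm4708, which was not in the count tables.

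Pycard (chr7:127991373-127993867) encodes ASC, the adaptor that joins several sensors to caspase-1. It had 20.1 and 15.3 CPM in MI libraries of 1 day, against 18.4 and 19.9 CPM in sham, and 88.6 and 81.4 CPM in MI libraries of 3 days, against 18.6 and 15.8 CPM in sham. At 1 day the groups overlapped. At 3 days both MI libraries were far above every other library. The log2 fold change was -0.10 ± 0.21 SE at 1 day (edgeR adjusted p = 0.733), and with library size alone as the scale it was 0.18. Its 3-day value was 2.30 ± 0.20 SE, a 4.93-fold rise (edgeR adjusted p = 1.18e-05). The effect of MI at 3 days minus that at 1 day was 2.40 ± 0.29 SE on the log2 scale (edgeR adjusted p = 0.000617), and this difference was called under all 12 alternatives that gave it, with adjusted p of 0.0111 or less.

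Casp1 (chr9:5298517-5307281) encodes caspase-1, the protease that cuts the precursors of interleukin-1 beta and interleukin-18 and gasdermin D. It had 5.44 and 5.78 CPM in MI libraries of 1 day, against 3.13 and 5.58 CPM in sham, and 43.8 and 38.0 CPM in MI libraries of 3 days, against 8.72 and 3.67 CPM in sham. Sham library B of 1 day lay between the 2 MI libraries of 1 day, whereas at 3 days the lower MI library was well above the higher sham library. The log2 fold change was 0.36 ± 0.47 SE at 1 day (edgeR adjusted p = 0.569) and 2.72 ± 0.36 SE at 3 days, a 6.60-fold rise (edgeR adjusted p = 0.00015). The rise at 3 days was 3.48 on the log2 scale without sham library A of 3 days. The difference between the days was 2.36 ± 0.59 SE (edgeR adjusted p = 0.0174). It was not past the threshold without MI library A of 3 days (2.09, edgeR adjusted p = 0.0842), MI library B of 3 days (2.28, edgeR adjusted p = 0.0711) or sham library B of 1 day (1.96, edgeR adjusted p = 0.145).

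Casp4 (chr9:5308849-5336791), known in mice as caspase-11, binds lipopolysaccharide in the cytosol and cuts gasdermin D without a sensor platform. It lies beside Casp1 on chromosome 9. It had 27.8 and 33.0 CPM in MI libraries of 1 day, against 6.49 and 8.68 CPM in sham, and 53.0 and 44.3 CPM in MI libraries of 3 days, against 13.6 and 9.03 CPM in sham. All MI values were above all sham values of both days. Casp4 was 3.99-fold higher at 1 day (log2 fold change 1.99 ± 0.27 SE, edgeR adjusted p = 0.000727) and 4.29-fold higher at 3 days (2.10 ± 0.25, edgeR adjusted p = 8.28e-05). The difference between the days was 0.11 ± 0.37 SE (edgeR adjusted p = 0.862).

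Gsdmd (chr15:75862144-75867408) encodes gasdermin D, whose cut form makes the pore of pyroptosis. It had 16.4 and 16.1 CPM in MI libraries of 1 day, against 8.52 and 7.42 CPM in sham, and 38.7 and 46.6 CPM in MI libraries of 3 days, against 13.2 and 13.4 CPM in sham. The pairs of libraries lay close together, and MI was above sham at both days. Gsdmd was 2.04-fold higher at 1 day (log2 fold change 1.03 ± 0.23 SE, edgeR adjusted p = 0.00664) and 3.21-fold higher at 3 days (1.68 ± 0.20, edgeR adjusted p = 7.34e-05). The call at 1 day was lost without sham library A of 1 day (1.07, edgeR adjusted p = 0.0586) or sham library B of 1 day (0.86, edgeR adjusted p = 0.097). The difference between the days was 0.66 ± 0.30 SE (edgeR adjusted p = 0.141).

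Ripk1 (chr13:34002225-34035170) encodes the kinase and scaffold that TNF receptor complexes recruit and that can start necroptosis through RIPK3. It had 54.0 and 49.7 CPM in MI libraries of 1 day, against 22.0 and 22.1 CPM in sham, and 97.5 and 102 CPM in MI libraries of 3 days, against 27.4 and 26.7 CPM in sham. The 2 libraries of each group lay close together, and MI and sham were well apart at both days. Ripk1 was 2.36-fold higher at 1 day (log2 fold change 1.24 ± 0.17 SE, edgeR adjusted p = 0.000739) and 3.69-fold higher at 3 days (1.88 ± 0.16, edgeR adjusted p = 1.26e-05). The difference between the days was 0.65 ± 0.23 SE (edgeR adjusted p = 0.0722). Its RefSeq locus overlaps Serpinb6a, which had 130 and 160 CPM in MI libraries of 1 day, against 150 and 162 CPM in sham, and 572 and 564 CPM in MI libraries of 3 days, against 187 and 123 CPM in sham. Whether reads of the overlap were counted for Ripk1 was not tested.

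Ripk3 (chr14:55784995-55788857) encodes the kinase that phosphorylates MLKL. It had 20.7 and 12.8 CPM in MI libraries of 1 day, against 3.07 and 2.30 CPM in sham, and 27.3 and 33.6 CPM in MI libraries of 3 days, against 2.09 and 3.72 CPM in sham. Each MI library was above all 4 sham libraries. Ripk3 was 6.34-fold higher at 1 day (log2 fold change 2.66 ± 0.37 SE, edgeR adjusted p = 0.000753) and 10.5-fold higher at 3 days (3.39 ± 0.34, edgeR adjusted p = 2.76e-05). The difference between the days was 0.73 ± 0.52 SE (edgeR adjusted p = 0.342). Of its 3 listed transcripts, the 1883-base form had 275 and 387 reads in MI libraries of 3 days, against 14 and 6 reads in sham. Its share of the gene's transcript reads was 87.0% in MI of 3 days and 55.6% in sham of 3 days, where reads were few, and was not tested. Its RefSeq locus overlaps Gm32092, which was not in the count tables.

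Mlkl (chr8:111311255-111338479) encodes the pseudokinase that permeabilises the plasma membrane in necroptosis. It had 12.3 and 20.4 CPM in MI libraries of 1 day, against 5.68 and 4.54 CPM in sham, and 41.0 and 42.8 CPM in MI libraries of 3 days, against 6.58 and 5.37 CPM in sham. MI was above sham at both days, and the 2 MI libraries of 3 days were nearly equal. Mlkl was 3.14-fold higher at 1 day (log2 fold change 1.65 ± 0.30 SE, edgeR adjusted p = 0.00276) and 7.01-fold higher at 3 days (2.81 ± 0.27, edgeR adjusted p = 2.22e-05). The difference between the days was 1.16 ± 0.41 SE (edgeR adjusted p = 0.0655). Without MI library B of 1 day this difference was 1.54 (edgeR adjusted p = 0.00796), and without MI library A of 1 day it was 0.69 (edgeR adjusted p = 0.131).

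Of its transcripts, the 2003-base Mlkl form had 38 and 46 reads in MI libraries of 1 day, against 21 and 10 in sham, and the 1976-base form 24 and 12 reads in MI, against 25 and 30 in sham. At 3 days the 2003-base form had 327 and 318 reads in MI libraries, against 28 and 18 in sham, and the 1976-base form 59 and 121 in MI, against 24 and 16 in sham. The 2003-base form held more of the gene's reads in MI than in sham at both days, at 53.2% against 28.4% at 1 day and 59.7% against 39.3% at 3 days. How reads common to both forms were divided between them is not known here, and the shares were not tested.

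**Figure D2:**
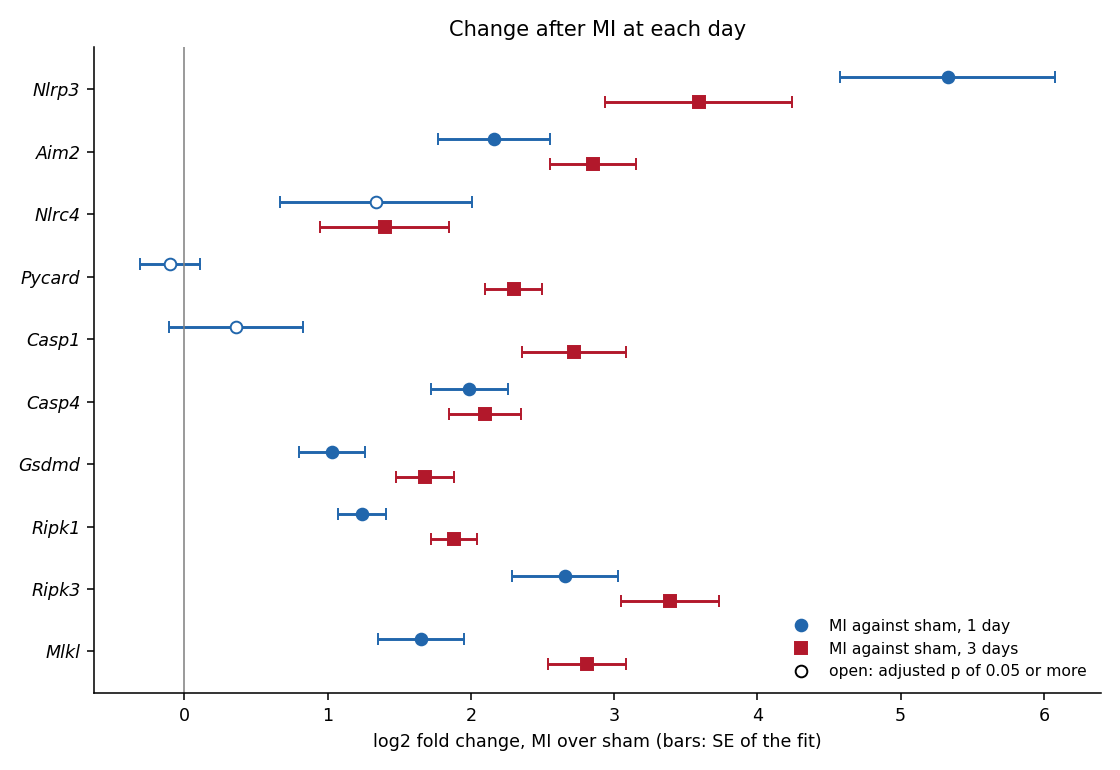
Log2 fold change of each gene, MI over sham, at 1 day (circles) and 3 days (squares), with the SE of the edgeR fit as bars; open symbols mark an adjusted p of 0.05 or more. Pycard moves furthest to the right between the days, by 2.40, and the 3 open symbols are Nlrc4, Pycard and Casp1 at 1 day.

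Across the 10 genes the difference of the MI effects between the days was called for Pycard and Casp1, both larger at 3 days, against 13.2% of tested genes called higher and 11.3% called lower in that contrast. Its estimate ran from -1.74 ± 1.13 SE for Nlrp3 (edgeR adjusted p = 0.291), the only negative one, to the value of Pycard. The Nlrp3 difference was -2.85 without MI library A of 3 days and -0.27 without sham library A of 3 days. Set directly against each other, MI libraries of 3 days were above MI libraries of 1 day for 8 of the 10 genes, against 23.4% of tested genes called higher and 22.0% called lower. The exceptions were Nlrp3, with a log2 fold change of -0.63 ± 0.50 SE (edgeR adjusted p = 0.326), and Nlrc4, with 1.08 ± 0.50 SE (edgeR adjusted p = 0.104). Nlrp3 was called lower without MI library A of 3 days (-1.69, edgeR adjusted p = 0.0341), and Nlrc4 higher without MI library B of 1 day (1.97, edgeR adjusted p = 0.0181). The 8 were led by Casp1 at 2.87 ± 0.39 SE (edgeR adjusted p = 0.000356) and Pycard at 2.25 ± 0.21 SE (edgeR adjusted p = 3.67e-05). Casp4, at 0.68 ± 0.24 SE (edgeR adjusted p = 0.0425), and Ripk3, at 0.84 ± 0.29 SE (edgeR adjusted p = 0.0393), were the closest to the threshold. Both lost the call in DESeq2 (adjusted p = 0.115 each), with DESeq2 size factors and in a fit of the MI libraries alone. Casp4 also lost it without MI library A of 1 day or either MI library of 3 days, and Ripk3 without MI library B of 1 day, either sham library of 1 day or either MI library of 3 days.

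Sham libraries of 3 days were compared with sham libraries of 1 day. Both groups had the sham operation and no mice without it were sampled. An effect of the operation present at both days therefore cannot show in this comparison. In edgeR 0 of the 10 genes and 0 of 15508 tested genes (0.0%) were called, with 1209 genes at an unadjusted p under 0.05. DESeq2 called 20 genes higher and 40 lower, with none of the 10 among them. The log2 fold changes of the 10 genes, 3 days over 1 day, ran from -0.15 for Pycard to 1.11 ± 1.02 SE for Nlrp3. Their median was 0.54, where the median of all tested genes was -0.01, so the sham groups were not level for these genes. The value of Gsdmd was 0.74 ± 0.22 SE (edgeR unadjusted p = 0.00767, adjusted p = 0.631). The Nlrp3 value was set by sham library A of 3 days at 3.26 CPM, against 0.744 CPM in library B.

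In the authors' deposited tables of their own test, 6 of the 10 genes had an adjusted p under 0.05 at 1 day and 10 at 3 days. Set against the counts, the deposited fold change has MI on top in the 1-day table but sham on top in the 3-day table. At 1 day the authors' deposited table gives Nlrp3 a log2 fold change of 4.82 and Pycard -0.15, and at 3 days, sham over MI, Ripk3 -3.18 and Nlrc4 -1.18. Gsdmd, called at 1 day by edgeR, has 0.90 with an adjusted p of 0.12 in the authors' deposited table.

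Levels were compared between the genes per length, as reads per kilobase per 1000000 non-mitochondrial reads of the transcript tables, summed over the transcripts of a gene. At 3 days after MI the order of the means was Casp4 at 40.7, Mlkl at 33.2, Casp1 at 27.8, Ripk1 at 27.4, Pycard at 25.1, Aim2 at 24.6, Gsdmd at 22.6, Ripk3 at 16.2, Nlrp3 at 8.90 and Nlrc4 at 1.74. Casp4 had 44.9 and 36.4 there and Mlkl 32.8 and 33.6, so these neighbours were apart, while Casp1, with 29.8 and 25.8, overlapped Ripk1, with 26.8 and 28.1. Aim2 overlapped both Pycard and Gsdmd, which were themselves apart by a narrow margin, at 25.1 and 25.0 for Pycard and 20.5 and 24.7 for Gsdmd. In sham libraries of 3 days Casp4 was again first, at 9.28 and 6.90, with values that overlapped those of Ripk1, at 7.15 and 6.32. The lowest mean was that of Nlrp3, at 0.868 and 0.375, which overlapped Nlrc4, at 0.746 and 0.812.

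At 1 day after MI the order began with Casp4 at 19.8 ± 1.94, Ripk1 at 14.0 ± 1.72, Nlrp3 at 11.7 ± 4.56 and Mlkl at 11.0 ± 1.90 (mean ± SD on this scale of reads per kilobase, n = 2 libraries). Nlrp3 ranked 3 of 10 in MI there, and 9 in sham libraries of 1 day at 0.482 ± 0.051 on the same scale. Pycard ranked 8 in MI at 5.70 ± 1.09 and 2 in sham at 4.99 ± 0.66, with little difference in its level. Ripk1 and Mlkl each overlapped Nlrp3 in their 2 MI values, so the order among these 3 is not fixed. Nlrc4 was last in both groups, at 0.776 ± 0.35 in MI and 0.275 ± 0.074 in sham. A level of at least 1 on this scale was reached by 9 of the genes in MI and 7 in sham at 1 day, and by 10 in MI and 7 in sham at 3 days. The main Pycard transcript in these tables, 3800 bases long, reaches beyond the RefSeq span of the gene, so its length and level depend on that model.

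**Figure D3:**
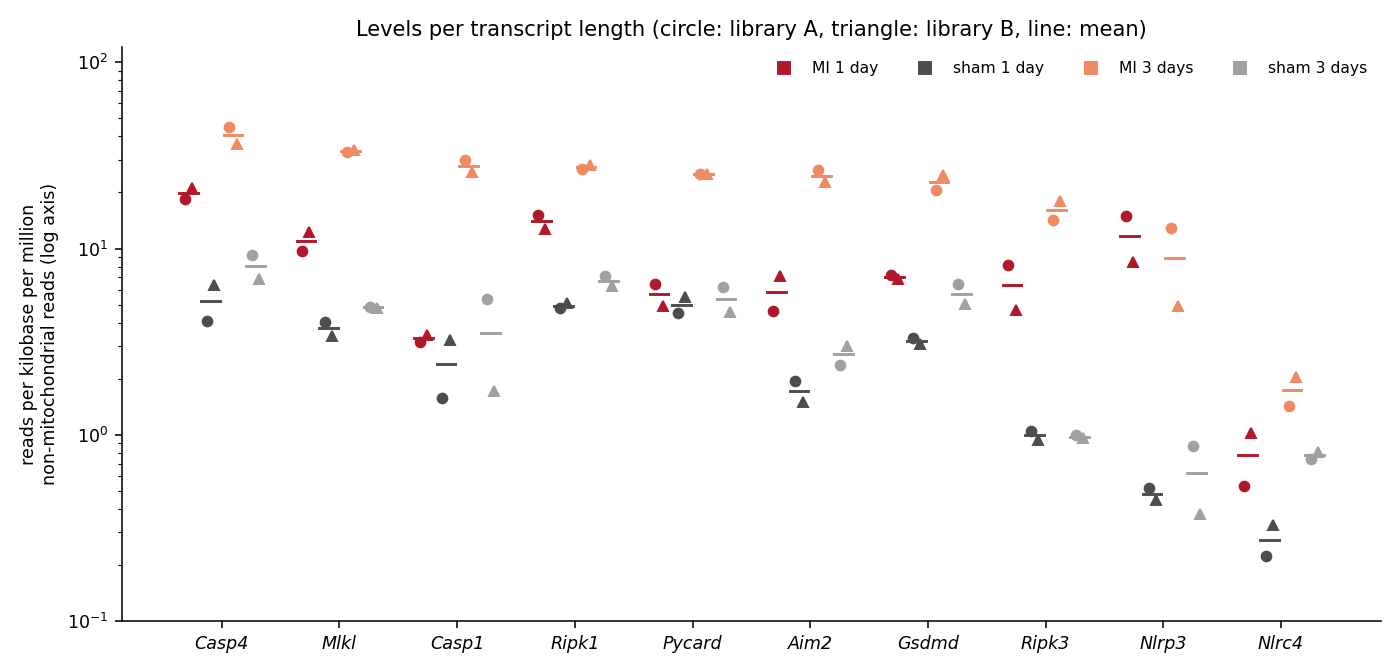
Level of each gene per transcript length, in reads per kilobase per 1000000 non-mitochondrial reads (log axis), for MI at 1 day, sham at 1 day, MI at 3 days and sham at 3 days; genes are ordered by the mean in MI at 3 days. Casp4 has the highest mean in MI at 3 days, at 40.7, and Nlrp3 spans the widest distance between MI and sham at 1 day.

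Each gene was also expressed as a percentage of the summed CPM of the 8 leukocyte markers of its library, a scale chosen after the values were seen and given as a description. At 1 day Nlrp3 was 3.60% and 2.72% of that sum in MI libraries, against 0.359% and 0.388% in sham, and was the only gene of the 10 with both MI libraries above both sham libraries, which was so for 4.09% of all tested genes. Pycard was 1.54% and 1.54% in MI, against 8.12% and 7.47% in sham. Casp1, Gsdmd and Ripk1 were, like Pycard, below sham in both MI libraries, as were 80.8% of all tested genes, and the other 5 genes overlapped. At 3 days 0 of the 10 genes were above sham in both MI libraries on this scale, against 3.72% of all tested genes, and 6 were below it, against 89.2%, while 4 overlapped. The sum that the genes are divided by was itself higher after MI at both days. Ripk3 was 1.09% and 1.42% in MI libraries of 3 days, against 0.523% and 1.75% in sham.

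**Figure D4:**
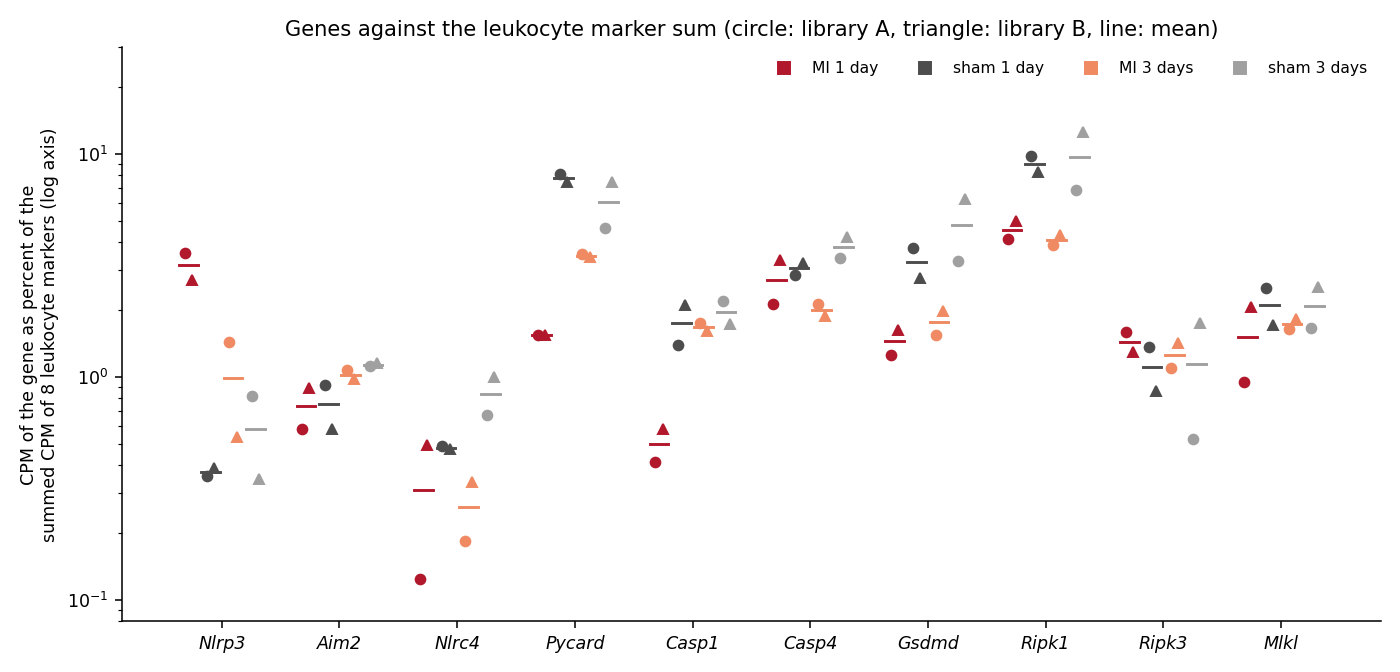
CPM of each gene as a percentage of the summed CPM of 8 leukocyte markers in the same library (log axis), for MI at 1 day, sham at 1 day, MI at 3 days and sham at 3 days. Nlrp3 at 1 day stands above sham, at 3.60% and 2.72%, whereas Pycard, Casp1, Gsdmd and Ripk1 at 1 day lie below it.

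The genes of most similar pattern were sought for the 2 ends of the difference between days, by Pearson's r of log2(CPM + 0.5) over the 8 libraries, among 10786 genes whose mean was 5 CPM or more. For Pycard these were Psmd6, a proteasome subunit, Ssr4, of the translocon-associated complex, and Rps3, a ribosomal protein, each with r = 0.996. Psmd6 had 107 and 93.7 CPM in MI libraries of 1 day, against 104 and 116 CPM in sham, and 211 and 206 CPM in MI libraries of 3 days, against 105 and 95.3 CPM in sham. For Nlrp3 they were Srgn, encoding the granule proteoglycan serglycin (r = 0.992), Inhbb, an activin subunit (r = 0.992), and Btg1 (r = 0.99). Srgn had 704 and 683 CPM in MI libraries of 1 day, against 40.6 and 42.7 CPM in sham, and 613 and 323 CPM in MI libraries of 3 days, against 78.1 and 42.6 CPM in sham. The 8 libraries share the groups, so these values describe likeness only.

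Among 20 other sensors and regulators of inflammasomes, 19 were tested. Their median log2 fold change was 1.50 at 1 day and 2.17 at 3 days. At 1 day 9 rose, against 19.3% of all tested genes. Among them was Txnip (log2 fold change 0.83, edgeR adjusted p = 0.0302), whose call was lost in 6 of 13 alternatives and which fell at 3 days. At 3 days 14 rose and 2 fell, against 31.7% and 23.7%. Without sham library A of 1 day, 4 rose at 1 day, and without sham library A of 3 days, 1 fell at 3 days. Mefv, encoding the sensor pyrin, had 20.6 and 23.1 CPM in MI libraries of 1 day, against 1.33 and 0.632 CPM in sham. MI libraries of 3 days had 31.9 and 31.7 CPM, against 0.856 and 0.956 CPM in sham (log2 fold change 4.46 ± 0.33 SE at 1 day and 5.12 ± 0.31 SE at 3 days, edgeR adjusted p = 8.70e-05 and 2.28e-06). Naip1, of the family that presents bacterial ligands to NLRC4, had 46 counts in MI and 2 in sham at 1 day, a ratio of 38.8 with a counting interval of 10.2 to 330.4. Its counts at 3 days were 147 in MI and 3 in sham, a ratio of 34.2 with an interval of 11.5 to 167.9. The interval is the exact 95% one and covers counting error only, and counts of the near-identical Naip genes may be shared. The call of Naip1 at 1 day (edgeR adjusted p = 0.0345) was lost in 7 of 12 alternatives, among them without MI library B (0.467), and that at 3 days (0.00827) in 3 of 13. The genes that fell at 3 days were Nlrp10, an NLR family member, with 4.96 and 5.72 CPM in MI libraries, against 40.8 and 34.6 CPM in sham (-2.81 ± 0.32, edgeR adjusted p = 5.9e-05), and Txnip, the thioredoxin-binding protein (-0.95 ± 0.26, edgeR adjusted p = 0.0116, and -0.47 with 0.164 without sham library A of 3 days).

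Among 15 outputs of pyroptosis, 11 were tested. Of these 4 rose at 1 day, where 19.3% of all tested genes did, and 9 at 3 days, where 31.7% did. At 1 day the count was 7 without MI library A of 1 day and 2 without either sham library of 1 day. Il1b, encoding the precursor of interleukin-1 beta, had 168 and 108 CPM in MI libraries of 1 day, against 6.43 and 3.28 CPM in sham (log2 fold change 4.83 ± 1.15 SE, edgeR adjusted p = 0.0102). MI libraries of 3 days had 457 and 54.1 CPM, against 28.2 and 3.51 CPM in sham (4.01 ± 1.03, edgeR adjusted p = 0.00893). Both calls depended on single libraries: at 1 day each of its 4 libraries, when left out, ended the call, with edgeR adjusted p of 0.077 to 0.101, and at 3 days the value was 1.57 without MI library A (edgeR adjusted p = 0.15), 3.19 without sham library B (edgeR adjusted p = 0.062) and 6.19 without sham library A (edgeR adjusted p = 0.0112). Il1a had 39.9 and 0.579 CPM in MI libraries of 3 days, against 0.107 and 0.159 CPM in sham, and its log2 fold change of 7.15 (edgeR adjusted p = 0.00547) was 1.85 without MI library A (edgeR adjusted p = 0.229).

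Il1rn, encoding the receptor antagonist of interleukin-1, had 63.9 and 65.2 CPM in MI libraries of 1 day, against 1.16 and 1.09 CPM in sham, and 126 and 37.0 CPM in MI libraries of 3 days, against 3.26 and 1.22 CPM in sham. Its log2 fold change was 5.83 ± 0.70 SE at 1 day and 5.17 ± 0.63 SE at 3 days (edgeR adjusted p = 0.000419 and 9.02e-05). Il18, the other cytokine cut by caspase-1, had 7.38 and 8.14 CPM in MI libraries of 3 days, against 1.23 and 0.691 CPM in sham (3.01 ± 0.47, edgeR adjusted p = 0.000449), and 0.892 and 1.72 CPM in MI libraries of 1 day, against 0.290 and 1.32 CPM in sham (0.60, edgeR adjusted p = 0.564). Gsdme (listed as Dfna5 in the tables), a further gasdermin, rose by 2.05 ± 0.54 SE at 1 day and 2.48 ± 0.43 SE at 3 days (edgeR adjusted p = 0.0158 and 0.00085), and the call at 1 day was lost without either sham library of 1 day (edgeR adjusted p = 0.09 and 0.133). The alarmin Il33 had 72.1 and 58.4 CPM in MI libraries of 1 day, against 7.13 and 12.2 CPM in sham, and rose by 2.76 ± 0.31 SE at 1 day and 2.53 at 3 days (edgeR adjusted p = 0.000291 and 6.0e-05). Ninj1, which ruptures the membrane at the end of lytic death, had 82.9 and 89.0 CPM in MI libraries of 3 days, against 40.4 and 39.9 CPM in sham (1.10 ± 0.20, edgeR adjusted p = 0.00121, and 0.0554 without MI library B of 3 days), and 76.2 and 54.5 CPM in MI libraries of 1 day, against 65.4 and 53.9 CPM in sham.

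Of 8 other caspases, 7 were tested. At 1 day 2 rose and 1 fell, against 19.3% and 19.7% of all tested genes. At 3 days 6 rose, against 31.7%. Without either sham library of 1 day, 1 rose and 0 fell at 1 day, and 0 also fell without MI library B of 1 day, without either MI library of 3 days, with library size alone as the scale and in a fit of the 1-day groups alone. Casp8, which restrains necroptosis and can cut gasdermin D, had 53.2 and 47.9 CPM in MI libraries of 1 day, against 10.8 and 14.3 CPM in sham, and 116 and 112 CPM in MI libraries of 3 days, against 19.7 and 17.8 CPM in sham. It rose by 2.01 ± 0.20 SE at 1 day and 2.60 ± 0.19 SE at 3 days (edgeR adjusted p = 0.000195 and 5.26e-06).

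The 27 genes listed upstream of necroptosis included 26 that were tested, with medians of 0.24 at 1 day and 0.37 at 3 days. Of these 8 rose and 2 fell at 1 day, against 19.3% and 19.7% of all tested genes. At 3 days 9 rose and 3 fell, against 31.7% and 23.7%. With library size alone as the scale, 12 rose and 1 fell at 1 day, and 15 rose and 1 fell at 3 days. At 1 day 4 rose without sham library A of 1 day and 3 without sham library B of 1 day, and the falls ranged from 1 to 5, the most without MI library A of 1 day. At 3 days 5 rose without either MI library or sham library A of 3 days. The falls there ranged from 1, without either sham library of either day or MI library A of 3 days, to 7, without MI library A of 1 day and in a fit of the 3-day groups alone. Fadd, the adaptor of caspase-8, had 5.68 and 8.12 CPM in MI libraries of 1 day, against 17.4 and 17.0 CPM in sham (-1.35 ± 0.26, edgeR adjusted p = 0.0038), and its fall at 3 days (-0.60, edgeR adjusted p = 0.0491) was lost in 8 of 13 alternatives. Ikbkg, encoding NEMO, fell at 1 day (-0.53 ± 0.18, edgeR adjusted p = 0.0455; lost in 7 of 13). Ppm1b, a phosphatase that acts on RIPK3, had 37.5 and 41.1 CPM in MI libraries of 3 days, against 95.9 and 107 CPM in sham (-1.37 ± 0.23, edgeR adjusted p = 0.000742). Pgam5, a mitochondrial phosphatase, fell at 3 days (-0.56 ± 0.20, edgeR adjusted p = 0.0367; lost in 8 of 13). Tnf, the cytokine that can start the pathway, had 10.8 and 9.47 CPM in MI libraries of 1 day, against 0.290 and 0.632 CPM in sham (log2 fold change 4.45 ± 0.73 SE, edgeR adjusted p = 0.00167), and 10.2 and 3.40 CPM in MI libraries of 3 days, against 0.856 and 0.744 CPM in sham (3.05 ± 0.64, edgeR adjusted p = 0.00259), where it was 1.87 without MI library A (edgeR adjusted p = 0.0211). Zbp1, a nucleic acid sensor that can engage RIPK3, rose by 1.67 ± 0.44 SE at 1 day and 2.40 ± 0.35 SE at 3 days (edgeR adjusted p = 0.0158 and 0.000271), and at 1 day not without sham library B of 1 day (1.08, edgeR adjusted p = 0.14). Tnfaip3, encoding the brake A20, rose by 2.81 ± 0.47 SE at 1 day (edgeR adjusted p = 0.00186), with 64.3 and 34.9 CPM in MI libraries, against 8.58 and 5.69 CPM in sham. At 3 days its log2 fold change was 1.15 ± 0.42 SE (edgeR adjusted p = 0.0416), lost in 9 of 13 alternatives, and 0.14 without MI library A of 3 days (edgeR adjusted p = 0.853).

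Tnfrsf1a, the main TNF receptor, rose by 1.09 ± 0.32 SE at 1 day and 0.97 ± 0.31 SE at 3 days (edgeR adjusted p = 0.0234 and 0.0251). The call at 1 day was lost in 8 of 13 alternatives, with a value of 0.34 without MI library A of 1 day (edgeR adjusted p = 0.211). The call at 3 days was lost in 6 of 13, among them without each of the 4 libraries of that day, with edgeR adjusted p of 0.0543 to 0.294. Cflar, encoding the caspase-8 partner cFLIP, rose by 0.78 ± 0.19 SE at 1 day (edgeR adjusted p = 0.0113; 0.48 without MI library A of 1 day), lost without either sham library of 1 day (edgeR adjusted p = 0.166 and 0.103), and was not called at 3 days (0.44 ± 0.19, edgeR adjusted p = 0.0763).

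Of 16 genes of Toll-like receptor and NF-kB signalling, which prime Nlrp3 and Il1b in macrophages, 9 rose at 1 day and 6 at 3 days. Of all tested genes 19.3% and 31.7% did so. The medians of the 16 genes were 1.17 and 0.52. The count at 1 day was 14 without MI library B of 1 day and 4 without sham library B of 1 day, that at 3 days was 10 without MI library B of 1 day, and with library size alone as the scale 11 rose at 3 days. Cd14, a co-receptor for lipopolysaccharide, had 295 and 132 CPM in MI libraries of 1 day, against 38.3 and 25.5 CPM in sham (2.75 ± 0.51, edgeR adjusted p = 0.00287, and 0.0532 without sham library B of 1 day), and 346 and 161 CPM in MI libraries of 3 days, against 55.5 and 27.5 CPM in sham (2.61 ± 0.50, edgeR adjusted p = 0.00154). Nfkbiz, an NF-kB cofactor, rose by 2.98 ± 0.47 SE at 1 day and 1.59 ± 0.43 SE at 3 days (edgeR adjusted p = 0.00137 and 0.0111). Its 3-day value was 0.75 without MI library A of 3 days (edgeR adjusted p = 0.265) and 1.38 without sham library B of 3 days (edgeR adjusted p = 0.115). Tlr2, a receptor of lipopeptides, rose by 2.51 ± 0.30 SE at 1 day and 2.37 ± 0.29 SE at 3 days (edgeR adjusted p = 0.0004 and 8.74e-05).

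Of 15 genes of the interferon side, 14 were in the tables and tested. In edgeR 0 rose and 1 fell at 1 day, against 19.3% and 19.7% of all tested genes. At 3 days 8 rose, against 31.7%. At an unadjusted p under 0.05 in edgeR, 2 were higher at 1 day, and DESeq2 called 0 higher. The fall was lost without either sham library of 1 day and with library size alone as the scale. At 3 days 5 rose without MI library A or sham library B of 3 days and 4 without MI library B of 3 days. Ifnar1, a chain of the type I interferon receptor, had 161 and 172 CPM in MI libraries of 3 days, against 59.1 and 47.0 CPM in sham (1.65 ± 0.17, edgeR adjusted p = 3.72e-05). Irf8, a myeloid transcription factor, had 42.6 and 40.7 CPM in MI libraries of 3 days, against 13.6 and 9.62 CPM in sham (1.84 ± 0.31, edgeR adjusted p = 0.000746).

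ESCRT-III proteins repair membranes pierced by gasdermin D or MLKL. Of 14 genes of this group 1 rose and 2 fell at 1 day, and 7 rose and 2 fell at 3 days, where 2 rose without either MI library of 3 days, 3 without sham library B of 3 days, and 4 without MI library A or either sham library of 1 day. At 1 day 3 rose without MI library B and 0 without sham library A of 1 day, and the falls ranged from 0, without either sham library of 1 day or MI library B of 3 days, to 5, without MI library A of 1 day. With library size alone as the scale 3 rose and 0 fell at 1 day, and 9 rose at 3 days. At 3 days 4 rose in DESeq2, with DESeq2 size factors, without the low-count filter and in a fit of the 3-day groups alone. In the main fit 19.3% of all tested genes rose and 19.7% fell at 1 day, and 31.7% and 23.7% at 3 days. Chmp4c had 3.69 and 3.34 CPM in MI libraries of 3 days, against 12.5 and 19.1 CPM in sham (-2.17 ± 0.28, edgeR adjusted p = 0.000128), and 31.8 and 29.4 CPM in MI libraries of 1 day, against 17.2 and 21.1 CPM in sham (0.68 ± 0.25, edgeR adjusted p = 0.053, and 0.0111 with library size alone as the scale). Chmp5 had 169 and 142 CPM in MI libraries of 3 days, against 61.0 and 43.7 CPM in sham (1.57 ± 0.20, edgeR adjusted p = 0.00014). Vps4b, an ATPase that recycles ESCRT-III, rose by 1.03 ± 0.22 SE at 1 day (edgeR adjusted p = 0.00567, and 0.111 without sham library A of 1 day) and 1.22 ± 0.22 SE at 3 days (edgeR adjusted p = 0.000977). Chmp7 had 47.9 and 27.8 CPM in MI libraries of 1 day, against 66.9 and 70.9 CPM in sham (-0.85 ± 0.24, edgeR adjusted p = 0.0194), lost with library size alone as the scale (edgeR adjusted p = 0.0511), without either sham library of 1 day (edgeR adjusted p = 0.0946 and 0.111) and without either MI library of 3 days (edgeR adjusted p = 0.0521 and 0.0528). Its value at 1 day was -1.40 without MI library A of 1 day and -0.52 without MI library B of 1 day. Chmp6 also fell at 1 day (-0.81 ± 0.23, edgeR adjusted p = 0.0221; lost in 5 of 13 alternatives), and Vps4a, the partner ATPase of Vps4b, fell at 3 days, with 43.9 and 42.2 CPM in MI libraries, against 76.5 and 74.9 CPM in sham (-0.82 ± 0.19, edgeR adjusted p = 0.00435).

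**Figure D5:**
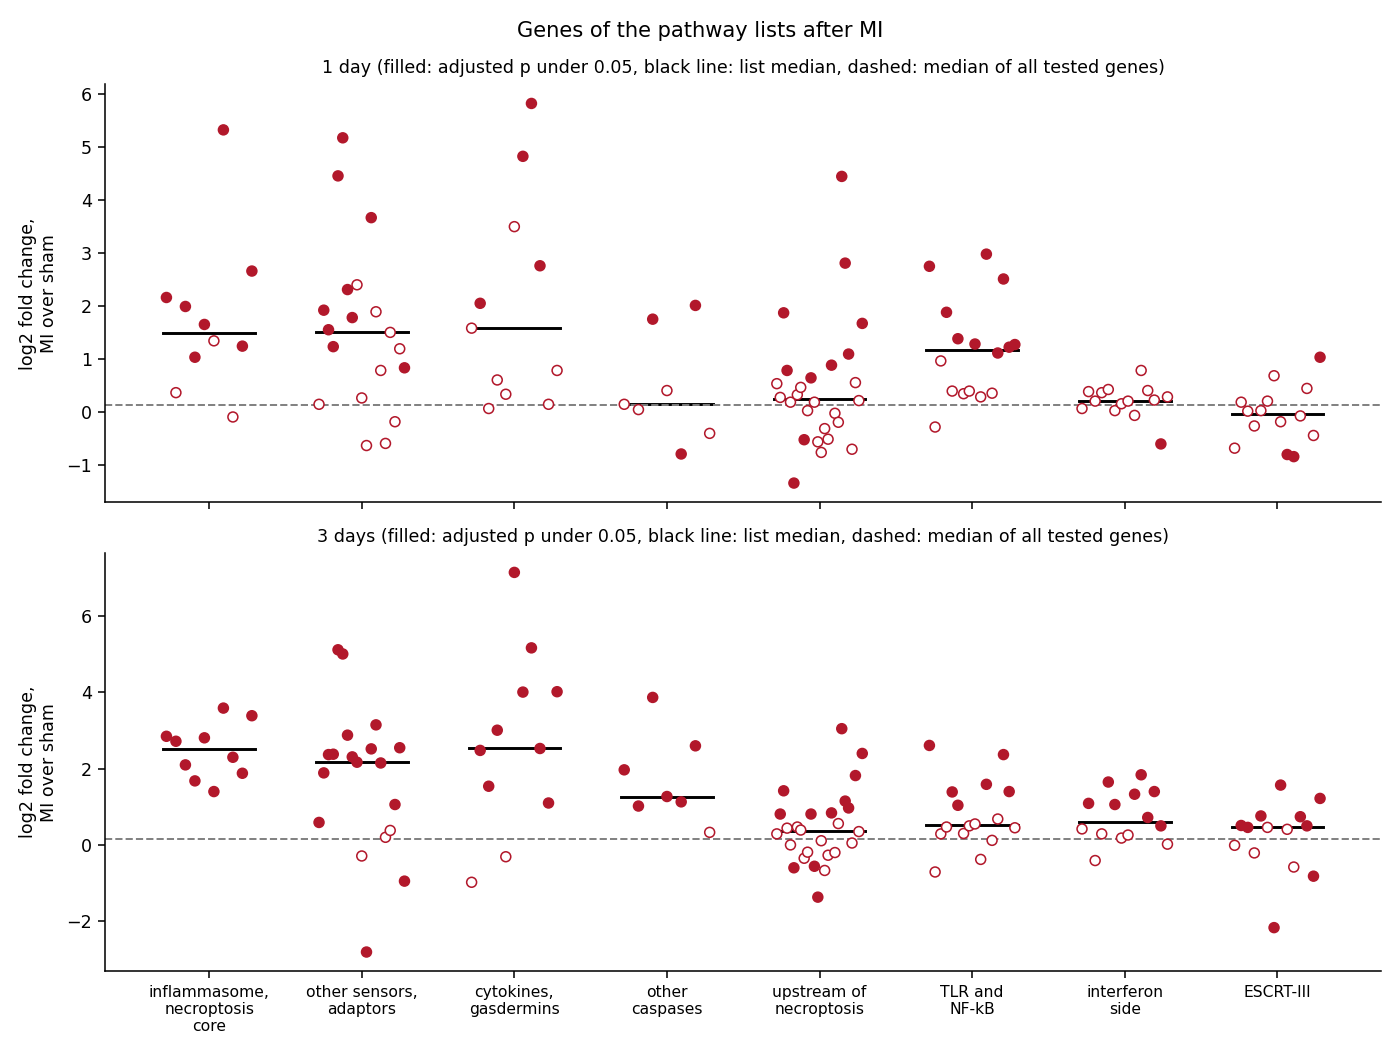
Log2 fold change of each tested gene of the 8 lists, MI over sham, at 1 day (upper) and 3 days (lower); filled points have an adjusted p under 0.05, black lines are list medians and the dashed line is the median of all tested genes. The 10 core genes have a median of 1.50 at 1 day and 2.51 at 3 days, whereas the genes upstream of necroptosis centre at 0.24 and 0.37.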

How the data were processed

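Total RNA from the left ventricular free wall of 8 mice was depleted of ribosomal RNA and sequenced paired-end, per the labels. The submitters' processing notes name the build mm10 and, as tools, TopHat2 2.0.14, HTSeq, DESeq2, Bowtie2 2.2.5, FastQC and SAMtools 0.1.2; no source used here gives the strand setting or the annotation. Values used are the deposited raw counts per gene, the deposited total read counts per transcript, and the log2 fold changes and adjusted p-values of the authors' own test, per the file headers.

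The 10 genes and all lists were chosen with earlier results of these data known. Genes were named by a fixed rule: the 10 genes, a set of core partners, the 2 largest called changes of each list at each day, and the 3 genes most like the members at either end of the difference between days. Nlrp10, Txnip, Il33, Fadd, Ikbkg, Ppm1b, Pgam5, Chmp6 and Vps4a were added after their values were seen, because 5 or fewer genes of their list were called in that direction. A few genes that this rule names are not reported here. Columns carry no replicate number, so libraries A and B follow column order within a group. Counts of 15508 of 24062 genes passed filterByExpr over the 4 groups, and 8554 were not tested. They were scaled by TMM and fitted with edgeR 4.0.16 in R 4.3.3 (robust quasi-likelihood, 1 fit of all 8 libraries, 4 residual degrees of freedom, common dispersion 0.0602), and contrasts were called at a Benjamini-Hochberg adjusted p under 0.05. SE is the absolute log2 fold change over the root of F. The script was tested on simulated data. There far fewer genes were changed than were called here, up and down in equal number, so the scaling was not tested by it. Series notes describe 2 mice per group as biological replicates. The spread behind the p-values is that between mice within groups, pooled over the 4 groups and drawn towards that of other genes (median prior degrees of freedom 5.51). It is not the spread of the 2 compared groups alone. At these depths 3 counts are 0.102 to 0.369 CPM, for counting error only. Alternatives were no filter, DESeq2 1.42.0, its size factors, library size alone, only the groups compared, and each library left out. Of the transcript tables, 48 further columns of values per library were not used.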

Additional observations from a re-analysis of the deposited data

Results flagged for a closer look

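For 9 named genes the effect of MI at 3 days differed from that at 1 day in the edgeR interaction contrast. Over all tested genes 13.2% were called higher and 11.3% lower in it. Nlrp10, Txnip and Chmp6 had been named after their values were seen. On the log2 scale, 3 days minus 1 day, the difference was 2.40 ± 0.29 SE for Pycard (adjusted p = 0.000617) and 2.36 ± 0.59 SE for Casp1 (adjusted p = 0.0174), in edgeR. Among the partners it was 1.76 ± 0.29 SE for Chmp5 (edgeR adjusted p = 0.00281) and 1.24 ± 0.25 SE for Ifnar1 (edgeR adjusted p = 0.0066). It was 0.96 ± 0.28 SE for Ninj1 (edgeR adjusted p = 0.036). The value for Chmp6 was 1.23 ± 0.32 SE (edgeR adjusted p = 0.0215). For Chmp4c it was -2.85 ± 0.37 SE (edgeR adjusted p = 0.000916), for Nlrp10 -2.17 ± 0.43 SE (edgeR adjusted p = 0.00675) and for Txnip -1.78 ± 0.37 SE (edgeR adjusted p = 0.00784), and these 3 were the values below 0. Casp1, Chmp6, Ifnar1, Ninj1 and Txnip each lost this call when certain single libraries were left out. For Ninj1 that held for each of the 2 sham libraries of either day and both MI libraries of 3 days. In the same contrast the 12 monocyte and macrophage markers had a median of 2.66, with 9 called higher. The 8 cardiomyocyte markers had a median of -2.85, with 8 called lower. Fibroblast markers had a median of 1.36, with 3 of 6 called higher, and neutrophil markers -1.28, with 4 of 13 called lower. Of 7 resident macrophage markers 1 was called higher and 2 lower, and of 8 leukocyte markers 2 higher. No endothelial, lymphocyte or erythroid marker that was tested was called. The part of any cell type in the differences was not tested.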

How the results depend on the processing

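No paired analysis was possible because the count columns carry no replicate number. Of the 10 genes, 6 to 8 were called at 1 day when 1 library was left out, 9 to 10 at 3 days, 1 to 3 in the difference between the days and 6 to 8 for MI at 3 days over MI at 1 day. Over the 10 genes and all alternatives, 124 values at 1 day kept direction and side of the threshold, 1 gained a call, 2 lost it and 3 changed sign; at 3 days 126 kept both and 4, all of Nlrc4, lost the call; in the difference 107 kept both, 1 gained a call, 3 lost it and 9 changed sign. No value that was called changed sign. With library size alone as the scale, signs changed for Pycard (0.18) and Chmp5 (0.10) at 1 day and for Pycard between the sham groups (0.04). The Nlrc4 difference was -0.03 with DESeq2 size factors and -0.12 in DESeq2. When 1 library was left out, values at 1 day ran from -0.42 to 0.07 for Pycard, -0.05 to 0.77 for Casp1, -0.16 to 1.99 for Il18, -0.04 to 1.21 for Irf8, -0.22 to 0.35 for Ninj1 and -0.10 to 0.34 for Pgam5. The difference ran from -0.19 to 0.51 for Casp4 and -0.77 to 0.95 for Nlrc4, and the change between sham groups from -0.29 to 1.83 for Nlrp3, -0.23 to 1.01 for Casp1 and -0.35 to 0.49 for Ripk3.

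Over all tested genes, leaving out 1 library gave 1017 to 5316 higher and 1671 to 4072 lower at 1 day, 2944 to 5575 higher and 2792 to 5034 lower at 3 days, 698 to 2600 higher and 667 to 2951 lower in the difference, 2062 to 3870 higher and 1975 to 5821 lower for MI at 3 days over MI at 1 day, and 0 to 1 higher and 0 to 2 lower for sham at 3 days over sham at 1 day. With library size alone as the scale 2025 genes were lower at 1 day, and the median of all tested genes was 0.40 at 1 day and 0.43 at 3 days, in place of 0.12 and 0.16. Between sham groups DESeq2 called 20 higher and 40 lower, and a fit of those groups alone 1 lower. The cause of these changes was not tested. Nlrc4 had the fewest counts of the 10 genes in MI and one of the larger standard errors, 0.67 at 1 day. Transcript levels were not recomputed from unique reads.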
